A study of Mus musculus with 33 samples.

Results

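The 4 histone ChIP-seq peak lists of wild-type mouse ganglionic eminences of e13.5 embryos were compared with one another: H3K27ac, H3K27me3, H3K4me1 and H3K4me3. They are 4 of the 33 samples of a series on DLX proteins, homeodomain factors that direct the making of GABAergic neurons, with 1 sample and 1 peak list per mark. All 4 came from CD1 embryos without a targeted allele or treatment. The tissue was dissected basal ganglia, which hold progenitor and mantle zones of the lateral, medial and caudal eminences, and about 250000 nuclei entered a native ChIP on mono- and dinucleosomes released by micrococcal nuclease. Members were chosen by label (wild type, e13.5, histone mark) and limited to chromosomes 1-19. Of 787020 deposited peaks there, 81800 with a −log10 q of at least 5 were used. Peak lists of DLX1, DLX2 and DLX5 from e13.5 CD1 basal ganglia, made by ChIP on formaldehyde-fixed and sonicated chromatin, served as an outside readout.

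Each mark is a chemical change on the tail of histone H3. H3K4me3, trimethylation of lysine 4, sits at the start sites of genes that are active or poised, and H3K4me1, its monomethylated form, flanks start sites and covers enhancers. H3K27ac, acetylation of lysine 27, is carried by active promoters and enhancers, while H3K27me3, laid on the same residue by Polycomb repressive complex 2, covers silenced developmental genes. Places with both H3K4me3 and H3K27me3 are called bivalent and are known from stem and progenitor cells, where they mark developmental regulators held silent. The eminences are a mixture of dividing progenitors and young neurons that become striatal projection neurons and GABAergic interneurons.

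A peak overlap in this tissue says that both marks were found at a place in the mixture of cells. It does not show that they sat on the same nucleosome, on the same allele or in the same cell. A mark carried by few cells also cannot be told apart from a mark carried weakly by many. With a single list per mark there is no replicate check and no test, so differences are given as descriptions. Exact binomial intervals (95%, Clopper-Pearson) cover counting error only and treat neighbouring peaks as independent, which they are not. The tissue label was not checked against marker genes, since no gene annotation of the build of the peaks (mm9) was used.

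The marks differed in how much of the genome they covered and how that cover was divided into peaks. H3K4me1 covered the most, with 41625 peaks over 166.0 Mb, or 6.88% of the 2413 Mb that chromosomes 1-19 span in the lists. H3K4me3 had 22803 peaks over 79.7 Mb (3.30%), H3K27me3 had 8741 over 61.4 Mb (2.54%), and H3K27ac had 8631 over 44.1 Mb (1.83%). The number of peaks past a threshold depends on the depth of a library, which is unknown here, so these counts do not rank the marks by abundance.

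At the threshold used, median widths lay close together, but the spread around them did not. H3K4me3 had a median width of 2709 bases, with quartiles of 1530 and 4457. H3K4me1 had a median of 2840 bases and H3K27ac one of 2978. H3K27me3 had a median of 3189 bases, between quartiles of 1075 and 8488, so its middle peaks covered the widest range of the 4 marks. At a −log10 q of at least 10 the medians were 8722 bases for H3K27me3, 3198 for H3K4me1, 3183 for H3K4me3 and 2843 for H3K27ac. At 2 or more H3K27ac had the highest median, 3500 bases, against 2778 for H3K27me3, 2025 for H3K4me1 and 2022 for H3K4me3. Peaks over 10 kb held 64.1% of the H3K27me3 bases, against 41.2% for H3K27ac, 23.9% for H3K4me1 and 14.1% for H3K4me3. The widest H3K27me3 peak measured 257 kb and the widest H3K27ac peak 271 kb, whereas no H3K4me3 peak exceeded 78.1 kb. H3K4me3 peaks had a median fold enrichment over input of 10.2 and a highest value of 36.5. The medians of the other marks were 4.87 for H3K27me3, 4.52 for H3K27ac and 4.19 for H3K4me1. These folds are the authors' values, averaged by the peak caller over a whole peak, so a wide peak can hold a summit higher than its fold. Antibody, depth and input can differ between lists, so the folds do not rank the marks. Across peaks, Spearman's rho of width and fold was 0.41 for H3K4me3, 0.36 for H3K27me3, 0.10 for H3K4me1 and −0.16 for H3K27ac.

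Every pair of marks shared more bases than random placement gives. Random placement means that each mark keeps its covered share of each chromosome and the marks are laid down independently, so the expected overlap is the product of their shares. On a chromosome the ratio of observed to expected bases cannot exceed the inverse of the larger share. Pairs and chromosomes with high cover therefore have less room for a high ratio. H3K27ac and H3K4me3 stood furthest from it, sharing 29.8 Mb against 1.54 Mb expected, a ratio of 19.4. H3K27me3 and H3K4me3 shared 25.1 Mb against 2.14 Mb, a ratio of 11.7. H3K4me1 overlapped H3K4me3 at a ratio of 9.83 and H3K27ac at 8.82. The 2 modifications of lysine 27, which cannot be on the same histone tail, shared 9.25 Mb against 1.19 Mb expected, a ratio of 7.75. H3K27me3 and H3K4me1 had a ratio of 4.86, the lowest at this threshold. The order of the pairs depended on the threshold. At a −log10 q of at least 10, H3K27ac with H3K27me3 was lowest (3.91), as it was with all deposited peaks (1.48), where H3K4me1 with H3K4me3 was highest (5.12). On single chromosomes the ratio of H3K27ac and H3K27me3 ran between 4.84 and 14.9, and that of H3K27ac and H3K4me3 between 11.96 and 29.5. Chromosome 11, which had the highest cover of H3K27ac (3.34%), H3K4me1 (10.4%) and H3K4me3 (5.41%), gave the lowest ratio in all 6 pairs. Chromosomes are parts of the same libraries and are not replicates.

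**Figure D1:**
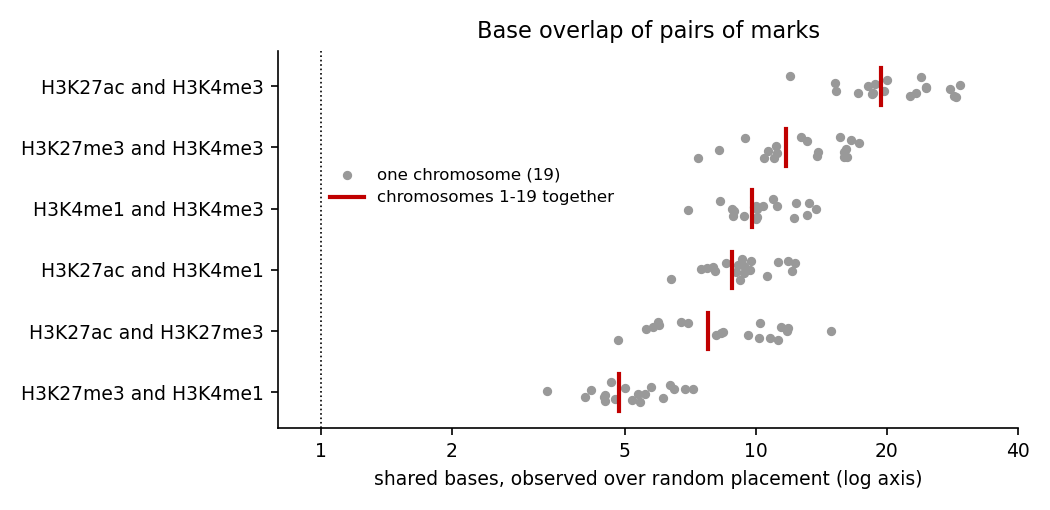
Shared bases of each pair of marks, divided by the bases expected from random placement (log axis), for chromosomes 1-19 together (red line) and for each of the 19 chromosomes (grey points, spread vertically for sight only). The dotted line marks a ratio of 1. All points lie to its right, with H3K27ac and H3K4me3 furthest out at 19.4 and H3K27me3 with H3K4me1 nearest at 4.86.

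Counted by peak at the threshold used, both lysine 27 marks touched H3K4me3 more often than H3K4me1. Of 8631 H3K27ac peaks, 8560 shared at least 1 base with an H3K4me3 peak, or 99.2% (interval 98.96 to 99.4%), against 7.87% by placement of peaks of the same widths. Of 8741 H3K27me3 peaks, 95.6% did (interval 95.1 to 96.0%), against 9.18% by placement. In the other direction, 39.1% of H3K4me3 peaks touched H3K27ac and 39.5% touched H3K27me3, against 3.19% and 3.98% by placement. H3K4me1 touched 79.1% of H3K4me3 peaks, 76.4% of H3K27me3 peaks and 73.2% of H3K27ac peaks. Of the H3K4me1 peaks, 44.8% touched H3K4me3, 20.1% touched H3K27me3 and 18.4% touched H3K27ac, against 7.06%, 4.11% and 3.33% by placement. These shares move with the threshold. At a −log10 q of at least 2, H3K4me1 was the more frequent partner, touching 97.6% of H3K27ac peaks and 83.4% of H3K27me3 peaks, where H3K4me3 touched 90.3% and 80.8%. With all deposited peaks, H3K4me3 touched 24.2% of H3K27ac and 23.5% of H3K27me3 peaks, and 77.3% of H3K4me1 peaks touched H3K27ac. With the 10000 peaks of highest q for each mark, 67.1% of H3K27me3 peaks and 73.6% of H3K27ac peaks touched H3K4me3.

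The near-complete overlap of H3K27ac with H3K4me3 belongs to its strong peaks. Among H3K27ac peaks with a −log10 q of 10 or more, 99.97% touched H3K4me3, and among those at 5 to 10, 98.7% did. Below the threshold used here the share was 81.1% at 3 to 5, 50.9% at 2 to 3 and 17.1% at 1 to 2. In the weakest class, 0 to 1, which held 246624 of the deposited peaks, it was 2.65%, below the 4.67% that placement gives. The weaker classes touched H3K4me1 more often than H3K4me3, with 82.3% at 2 to 3 and 48.6% at 1 to 2. A −log10 q of at least 5 therefore leaves out most H3K27ac peaks away from H3K4me3, and what follows describes acetylation mainly at H3K4me3 places. Contact with H3K27me3 followed the same order, with 69.2% of H3K27ac peaks at 10 or more, 46.4% at 5 to 10 and 2.94% at 0 to 1.

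Of the bases under at least 1 mark, 63.9% carried a single mark, 20.1% carried 2, 13.9% carried 3 and 2.15% carried all 4. H3K4me1 alone was the largest class, with 97.9 Mb. H3K27me3 alone followed with 31.3 Mb, then H3K4me1 with H3K4me3 with 23.7 Mb. H3K27ac with both H3K4 marks covered 15.6 Mb, against 0.112 Mb expected, and H3K27me3 with both H3K4 marks covered 11.9 Mb, against 0.157 Mb. All 4 marks together covered 4.89 Mb, against 0.0035 Mb expected. H3K27ac and H3K27me3 without either H3K4 mark covered 0.231 Mb, below the 1.06 Mb expected, a ratio of 0.217. H3K27ac alone, with 6.42 Mb, and H3K4me3 alone, with 9.83 Mb, also lay below placement, at ratios of 0.167 and 0.139. These expectations use the whole cover of each mark, and 67.7% of H3K27ac bases and 40.9% of H3K27me3 bases lay under H3K4me3. A low ratio in a class without H3K4 marks therefore does not show that H3K27ac and H3K27me3 avoid each other there. The bases with all 4 marks formed 3681 runs with a median length of 647 bases, of which 1241 reached 1 kb.

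H3K27me3 peaks divided by width into those that touched H3K27ac and those that did not. The 4794 peaks with H3K27ac had a median width of 1276 bases, and the 3947 without had one of 7834. Of H3K27me3 peaks under 1 kb, 86.1% touched H3K27ac, against 2.21% by placement, and of those of 1-2 kb 92.5% did. The share was 51.9% at 2-5 kb, 22.3% at 5-10 kb, 18.9% at 10-20 kb and 17.6% at 20 kb and over. At 20 kb and over, placement alone gives 13.3%. Wide peaks have more room to touch something by chance, so from 1-2 kb upward the observed order runs opposite to that of placement.

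**Figure D2:**
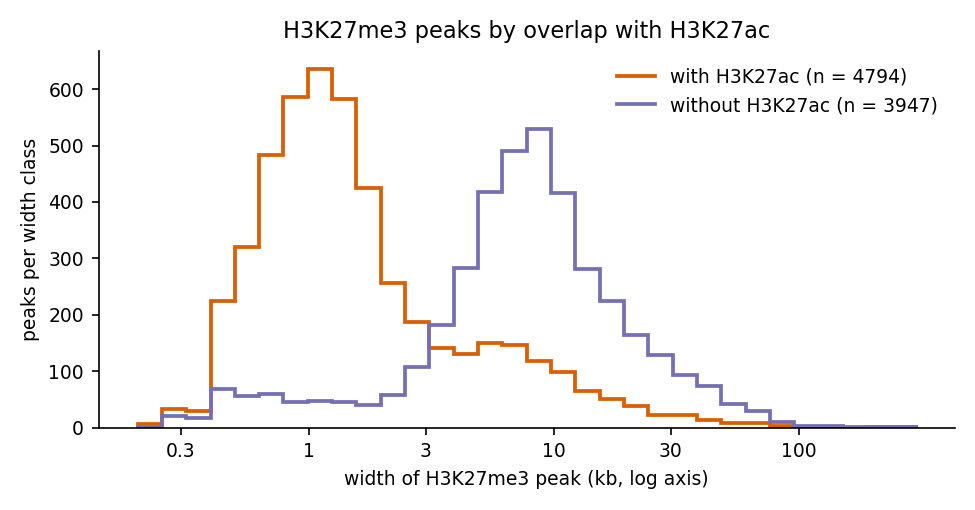
Number of H3K27me3 peaks per width class (log axis, kb), for the 4794 peaks that touch an H3K27ac peak and the 3947 that do not. Peaks with H3K27ac gather near 1 kb and peaks without it near 8 kb, with medians of 1276 and 7834 bases.

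Among the peaks used, significance split H3K27me3 in the same way. Those with a −log10 q of 20 or more had a median width of 12603 bases and 15.1% of them touched H3K27ac. At 10 to 20 the median was 7360 bases and the share 31.8%, and at 5 to 10 they were 1606 bases and 68.2%. Contact with H3K4me3 lay between 95.2% and 97.6% over these classes. Below the threshold the order did not continue: 50.2% touched H3K27ac at 3 to 5, where the median width was 2605 bases, 16.9% at 2 to 3, 3.06% at 1 to 2 and 1.21% at 0 to 1. Contact with H3K4me3 was 80.2%, 38.2%, 10.5% and 2.62% in those classes. Among the peaks used the short ones are thus the weaker by q, and the shares that rest on them move with the threshold. With −log10 q of at least 10 for all marks, 9.44% of H3K27ac peaks touched H3K27me3, against 55.3% at 5, and the base ratio of that pair was 3.91 in place of 7.75. When only H3K27me3 peaks of 5000 bases or more were kept, a choice made after seeing the data, the share was 8.76% and the ratio 3.93.

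Most H3K27me3 sequence lay in the wide peaks. Peaks with H3K4me3 and H3K27ac were 54.8% of H3K27me3 peaks but held 26.2% of its bases. Those with H3K4me3 and without H3K27ac were 40.8% of peaks and held 65.0% of the bases, with a median width of 7784 bases. Another 384 peaks touched neither, held 8.80% of the bases and had a median width of 9212. H3K4me1 touched 67.8% of the first class, 91.1% of the second and 49.0% of the third.

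Seen from H3K4me3, 9001 of 22803 peaks were bivalent in the sense of touching H3K27me3. The word stands here for that overlap alone and does not say that the places are silent. Of these, 4210 (18.5% of all H3K4me3 peaks, interval 17.96 to 18.97%) had no H3K27ac and 4791 (21.0%) had it. A further 4135 (18.1%) had H3K27ac without H3K27me3, and 9667 (42.4%) had neither. In bivalent peaks without H3K27ac the median peak lay wholly inside H3K27me3 (100% of its bases). In those with H3K27ac the median share inside H3K27me3 was 29.5%, and the median share inside H3K27ac was 61.9%. H3K4me1 touched 89.6% of bivalent peaks without H3K27ac and 72.1% of those with it. It touched 76.3% of the peaks with H3K27ac alone and 79.2% of those with neither.

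The H3K4me3 peaks with neither lysine 27 mark were narrow and weak. Their median width was 1532 bases and their median fold 6.11. Peaks with H3K27me3 and H3K27ac had a median width of 4326 bases and a median fold of 13.2, the highest of the 4 classes. Peaks with H3K27ac alone stood at 3675 bases and 12.3-fold, and bivalent peaks without H3K27ac at 3037 bases and 10.5-fold. The quartiles of fold overlapped among the 3 classes with a lysine 27 mark, with 7.34 to 13.1 for H3K27me3 without H3K27ac, 11.6 to 14.9 for both and 9.89 to 14.2 for H3K27ac alone.

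**Figure D3:**
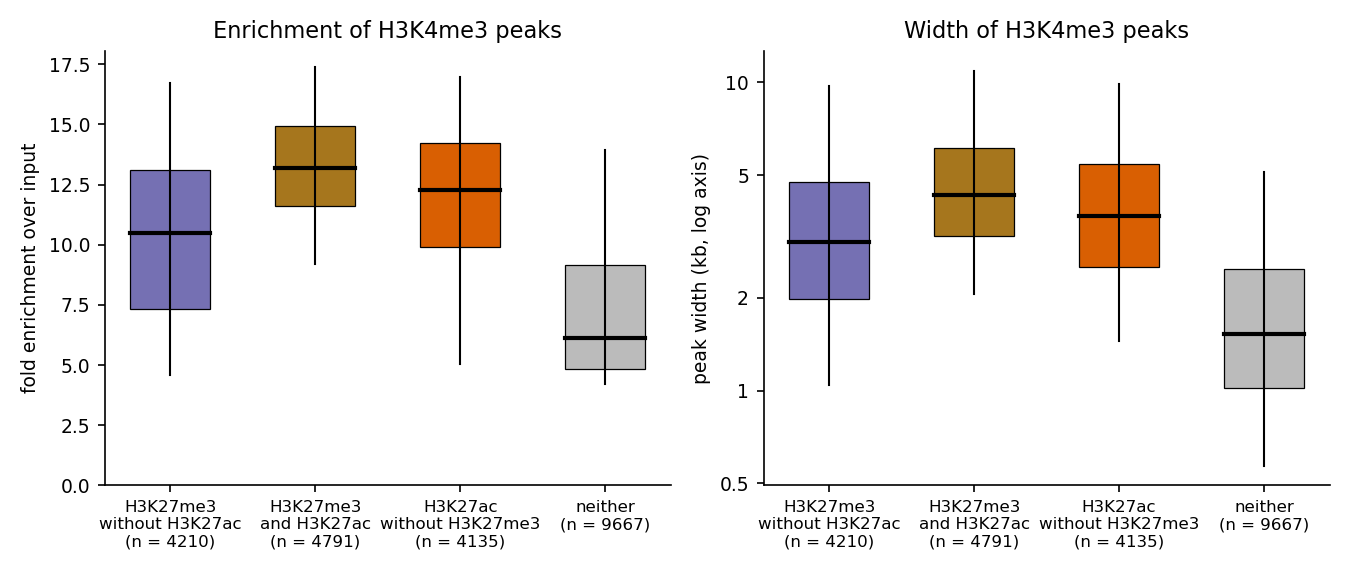
Fold enrichment over input (left, linear axis) and width (right, kb, log axis) of H3K4me3 peaks in 4 classes by overlap with H3K27me3 and H3K27ac. Boxes span the quartiles, thick lines mark medians and thin lines run between the 5th and 95th percentiles. The class with neither mark sits lowest in both, at medians of 6.11-fold and 1532 bases.

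Around the centres of H3K4me3 peaks the marks had different reach. In bivalent peaks without H3K27ac, H3K27me3 covered 92.6% of centres and still 42.0% of positions 5 kb away. In those with H3K27ac it covered 48.8% of centres and 8.90% of positions at 5 kb. H3K27ac covered 79.3% of centres in this class and 86.7% of centres where H3K27me3 was missing. H3K4me1 covered 85.6% of centres in bivalent peaks without H3K27ac and 58.1% in those with it. In the class with H3K27ac alone its cover was nearly flat over the centre, with 69.0% at the centre, 69.2% at its highest and 64.9% at 1 kb. Peak lists record presence only, so a dip in signal inside a called peak could not show.

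**Figure D4:**
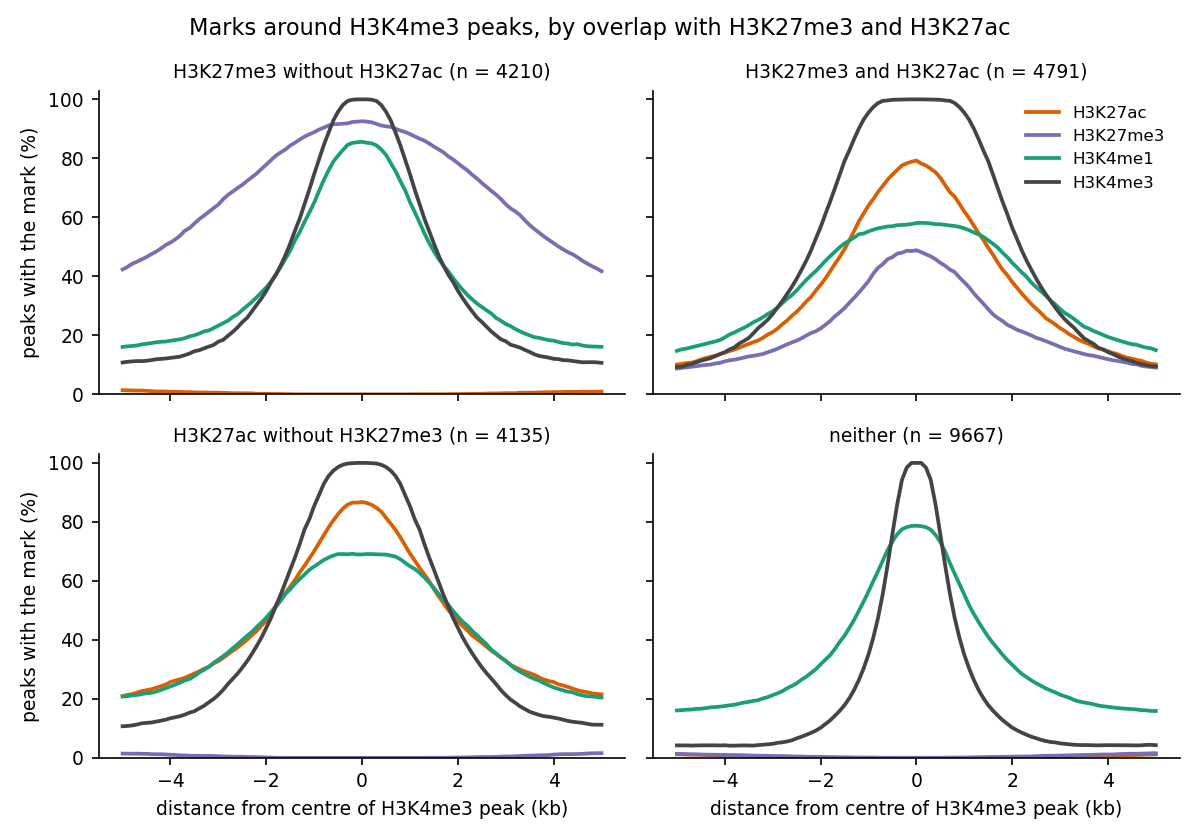
Percentage of H3K4me3 peaks covered by a peak of each mark at distances of up to 5 kb on either side of the peak centre, in 4 classes by overlap with H3K27me3 and H3K27ac. The curve of H3K27me3 is broad where H3K27ac is missing (42.0% at 5 kb) and narrow where it is present (8.90%). The class a panel shows fixes which lysine 27 marks can appear at the centre.

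Dividing H3K4me3 peaks by the width of the H3K27me3 peak they touched shows the same overlaps from the other side and is not separate support. Of the 4020 that touched an H3K27me3 peak of 5 kb or more, 19.1% carried H3K27ac, against 3.73% by placement. Of the 3702 that touched an H3K27me3 peak under 2 kb and none of 5 kb or more, 89.8% did. The figure was 54.7% for the 1279 that touched only H3K27me3 peaks of 2-5 kb, and 29.96% for the 13802 without H3K27me3. Placement gives 3.52% for the group with short H3K27me3 and 2.91% for the group without H3K27me3. This division was drawn after seeing the widths.

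Enrichment of a mark also varied with the presence of the others. H3K4me3 had a median fold of 12.8 with H3K27ac and 7.16 without, and the gap was between 2.95 and 5.78 in each of 4 equal classes of H3K4me3 width. With H3K27me3 the median was 12.3 and without it 7.63, a gap of 0.95 to 4.96 within those classes. Both gaps depended on which peaks were kept. With 10000 peaks per mark the gap was 0.38 for H3K27ac and 0.26 for H3K27me3, and with all deposited peaks it was 0.65 and 0.73. At a −log10 q of at least 10 the gap for H3K27me3 turned round, to −0.27. By H3K4me1 the pooled medians of H3K4me3 were 10.2 with and 10.3 without. The width classes differed: in the second narrowest the median was 9.51 with and 11.8 without H3K4me1, and in the others it was higher with H3K4me1 by 0.47, 0.03 and 0.27. H3K27ac was stronger with H3K27me3 (4.78 against 4.26 without) in each of 4 such classes of H3K27ac width. That gap was 0.11 with all deposited peaks and 0.092 at a −log10 q of at least 10. At least 2 gave 1.27 and 10000 peaks per mark gave 0.67. H3K27ac was weaker with H3K4me1 (4.46 against 4.72 without), again in each class, although this turned round when weaker peaks were let in. H3K4me1 had a median fold of 4.38 with H3K4me3 and 4.06 without. This gap was 1.42 with all deposited peaks and 0.98 at a −log10 q of at least 2. It was 0.063 at 10 or more and 0.0069 with 10000 peaks per mark.

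H3K27me3 had a lower median fold with H3K27ac (4.66) than without it (5.47). This difference mixed widths. In the 2 narrower of 4 equal width classes the peaks with H3K27ac were slightly higher, by 0.27 and 0.09, and in the 2 wider classes they were lower by 0.76 and 0.69. The pooled difference also turned to 0.11 with all deposited peaks and to 0.87 at a −log10 q of at least 2. In the widest class, H3K27me3 peaks with H3K4me1 had a median fold of 6.47, against 4.86 without, and those with H3K4me3 had 6.52, against 4.58 without. In the 2 narrower classes the differences were −0.07 and −0.01 by H3K4me1, and 0.08 and 0.05 by H3K4me3.

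At the threshold used, most H3K4me1 peaks stood alone. Of them, 21876 (52.6%) touched no other mark, against 2012 H3K4me3 peaks (8.82%), 196 H3K27me3 peaks (2.24%) and 2 H3K27ac peaks (0.023%). These solitary H3K4me1 peaks lay at a median of 31.9 kb from the nearest H3K4me3 peak, and their median fold was 4.05. Among H3K4me1 peaks without H3K4me3, 343 carried H3K27ac, the pair of marks known from active enhancers, and lay at a median of 5.45 kb from H3K4me3. Another 758 carried H3K27me3 without H3K27ac, the pair known from poised enhancers, at a median of 8.43 kb. The H3K27ac or H3K27me3 peak that such an H3K4me1 peak touches may itself reach an H3K4me3 peak, since 71 H3K27ac peaks and 387 H3K27me3 peaks in all lay away from H3K4me3.

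DLX1, DLX2 and DLX5 were found at all 4 marks more often than placement gives. Of 16885 DLX2 peaks, 65.5% touched H3K4me1, 45.6% H3K4me3, 26.5% H3K27ac and 18.4% H3K27me3. Placement gives 7.69%, 3.73%, 2.00% and 2.72%. DLX5 (2913 peaks) had nearly the same shares, with 62.0% at H3K4me1 and 45.9% at H3K4me3. DLX1 (8341 peaks) had lower shares, with 48.0% at H3K4me1, 35.5% at H3K4me3, 21.1% at H3K27ac and 13.9% at H3K27me3. No mark was found at 40.9% of DLX1 peaks, 22.4% of DLX2 peaks and 23.2% of DLX5 peaks. Antibodies and the number of peaks called differ between the DLX lists, so these shares do not rank the factors. Nor do they rank the marks, since the histone lists differ in length. With 10000 peaks per mark, 30.6% of DLX2 peaks touched H3K27ac, 26.4% H3K4me1, 20.7% H3K27me3 and 19.5% H3K4me3, and at a −log10 q of at least 10, 34.8% touched H3K4me3 and 23.3% H3K4me1. At the threshold used, H3K4me1 as the sole mark was the most frequent marked state. It held 28.7% of DLX2, 26.9% of DLX5 and 20.7% of DLX1 peaks. This too depends on the lists, since H3K4me1 has the longest at this threshold. With all deposited peaks, 89.3% of DLX2 peaks touched H3K4me1, 87.2% H3K4me3 and 86.5% H3K27ac.

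**Figure D5:**
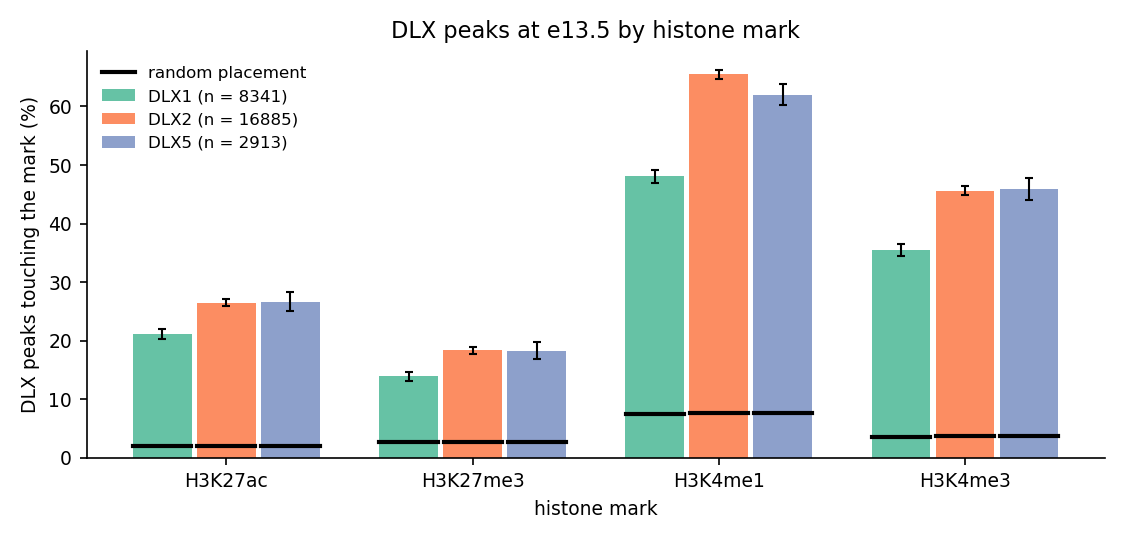
Percentage of DLX1, DLX2 and DLX5 peaks at e13.5 that share at least 1 base with a peak of each histone mark. Thin error bars are exact binomial 95% intervals (counting error only) and thick black lines give the share by random placement. All bars lie above their lines, with 65.5% of DLX2 peaks at H3K4me1 and 18.4% at H3K27me3. The order of the marks changes with the number of peaks kept per mark.

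Among H3K4me3 peaks, the share with DLX2 was lowest where H3K27me3 was present without H3K27ac. DLX2 was at 13.1% of those (interval 12.1 to 14.1%, placement 2.74%), at 32.1% of peaks with both lysine 27 marks (30.8 to 33.5%, placement 3.49%) and at 35.3% of peaks with H3K27ac alone (33.9 to 36.8%, placement 2.99%). Peaks with neither had it at 22.9%, although they are the narrowest and placement gives only 1.58%. DLX1 followed the same order, with 5.32% for H3K27me3 without H3K27ac, 15.4% for both, 16.9% for H3K27ac alone and 9.14% for neither. DLX5 did too, with 2.52%, 6.78%, 7.62% and 4.42%. In the same order of classes, placement gives 1.41%, 1.81%, 1.54% and 0.784% for DLX1, and 0.486%, 0.624%, 0.528% and 0.272% for DLX5. Relative to placement, H3K27me3 without H3K27ac was still lowest for each factor, but H3K27ac alone did not stand above neither. Away from H3K4me3, DLX2 was at 29.7% of H3K4me1 peaks with H3K27me3, 27.4% of those with H3K27ac and 18.4% of solitary ones. Placement gives 2.26%, 3.82% and 2.26% in that order, since those with H3K27ac are wider (median 3908 bases, against 2336 for solitary ones), so relative to placement the group with H3K27ac does not stand above the solitary peaks.

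All 4 marks were clustered along the chromosomes. The median gap between neighbouring peaks was 90.7 kb for H3K27ac, 96.7 kb for H3K27me3, 40.8 kb for H3K4me3 and 23.6 kb for H3K4me1. Even placement of the same number of peaks gives 194, 191, 73.4 and 40.2 kb in that order. Over 2387 windows of 1 Mb, the variance of the number of peaks was 11.4 times its mean for H3K4me1, 8.86 times for H3K4me3, 4.77 times for H3K27ac and 4.59 times for H3K27me3, where even placement gives a value near 1. The lists differ in length, and with 10000 peaks per mark they were 5.82, 5.39, 5.27 and 5.14. No H3K27me3 peak lay in 24.2% of windows and no H3K27ac peak in 23.7%. The cover of the marks per window was correlated, with Spearman's rho of 0.89 for H3K27ac and H3K4me3, 0.80 for H3K27me3 and H3K4me3 and 0.64 for H3K27ac and H3K27me3. These rho values describe windows that share mappability, base composition and gene density, and carry no test.

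The densest windows of each mark differed in what else they held. On chromosome 5, 44.3% of chr5:112000001-113000000 was under H3K27ac and 46.9% under H3K4me1, with 0.347% under H3K27me3. The densest H3K27me3 window, chr8:94000001-95000000, was 34.8% under H3K27me3 and held no H3K27ac peak. H3K4me1 was densest in chr5:132000001-133000000 (48.2%), where H3K27ac covered 0.956% and H3K27me3 0.633%. H3K4me3 was densest in chr10:79000001-80000000 (25.8%), with 61 peaks, and there H3K27ac and H3K27me3 covered 20.03% and 19.3%. The median window had 0.773% under H3K27ac, 1.07% under H3K27me3, 4.74% under H3K4me1 and 2.37% under H3K4me3.

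Single places show the range of these combinations (mm9 coordinates, no gene annotation used). For comparison, H3K27ac covered 1.83% of the whole span, 1.85% of chromosome 15 and 2.01% of chromosome 7. Among the 5 longest H3K27me3 domains, joined over gaps of up to 3 kb, some had no H3K27ac and the others lay near those shares. The longest, chr15:102725092-102982084, measured 257.0 kb, with 2.09% of its bases under H3K27ac and 9.35% under H3K4me3. Next came chr7:138826054-139082779 and chr11:96003774-96252206, both at 0% H3K27ac, and chr7:150461571-150653222 at 1.81%. The fifth, chr6:52093023-52283681, had no H3K27ac but 62.6% of its 191 kb was under H3K4me3. Inside it lay one of the longest bivalent places, chr6:52137508-52204528, where H3K4me3 was wide (67.0 kb) but weak (3.97-fold).

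Other long bivalent places carried H3K27ac as well. At chr13:78299551-78353488, 53.9 kb long, each of the marks covered at least 99.7% of the bases, and 18 DLX2 peaks and 6 DLX1 peaks fell inside. It contained the longest run of all 4 marks, followed by chr3:34535328-34571951 (36.6 kb, 17 DLX2 peaks) and chr3:88001074-88030229 (29.2 kb, 5 DLX2 peaks). At chr7:77467384-77522936, H3K27me3 and H3K4me3 covered all 55.6 kb and H3K27ac covered 64.9%. Another of the 5, on chromosome 18, had no H3K27ac and no H3K4me1 peak. The wide H3K4me3 peak chr7:86640433-86696176 was wholly under H3K27ac, 35.7% under H3K27me3, and held 18 DLX2 peaks.

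Some places held peaks of all 3 DLX proteins and most or all of the marks. The longest bivalent place, chr11:3022122-3100190, had 89.6% of its bases under H3K27ac, 93.7% under H3K27me3 and none under H3K4me1, with 11 DLX1, 13 DLX2 and 15 DLX5 peaks. The H3K27ac peaks of highest fold, chr9:35111566-35113243 (12.9-fold) and chr2:98502258-98507609 (12.4-fold), touched all the other marks and all 3 DLX lists. So did chr5:143570834-143588688 (10.5-fold) and chr17:39979810-39985867 (9.40-fold). The fifth by fold, chr2:126757667-126759233 (9.39-fold), touched H3K4me3 alone. Why these 4 peaks are in every list was not tested, nor why chr11:3022122-3100190 holds so many peaks of all 3 DLX proteins. No filter for regions prone to artefact signal was applied here, so such regions may be among the places named.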

How the data were processed

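The submitters' processing notes name MACS2, BWA 0.7.16a, Trim Galore, deepTools and SAMtools as tools and mm9 as the genome. For each mark the authors deposited a broad peak list against input, which gives each peak a fold enrichment (a linear ratio) and −log10 p and −log10 q. The labels name a wild-type input for H3K4me1 apart from the wild-type histone input, so the lists may not share a control. The lists hold many peaks of low −log10 q (the lowest value is 0.0), and peaks at 5 or more were kept (between 3.01% and 22.8% per mark). Peaks carry a tag in their names that is not explained, so merging of libraries is unknown. Read depth is unknown from these files. DLX peaks listed once per summit were counted once.

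Overlap meant at least 1 shared base. Expected overlap was computed in closed form per chromosome from covered shares and peak widths, over the span from the first to the last deposited peak, which counts unmappable gaps as available. Interval code was tested on simulated data. Python 3.11.15, NumPy 2.4.6, pandas 2.3.3 and SciPy 1.17.1 were used. Named places are the 5 longest bivalent places, 5 widest H3K4me3 peaks, 5 longest H3K27me3 domains, 5 H3K27ac peaks of highest fold, 3 longest runs of all 4 marks and the densest 1 Mb window per mark. Members, thresholds and rules were chosen with earlier results of these data known. Knockout libraries, inputs, RNA and other ages were not used here.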

Additional observations from a re-analysis of the deposited data

Results flagged for a closer look

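Peaks outside chromosomes 1-19 entered no comparison and are flagged as signal in data left aside. At a −log10 q of at least 5, chromosome X held 252 H3K27ac, 69 H3K27me3, 231 H3K4me1 and 655 H3K4me3 peaks. Chromosome Y and unplaced contigs held 11 H3K27ac, 21 H3K27me3, 17 H3K4me1 and 31 H3K4me3 peaks. Per Mb, H3K27me3 had 0.425 peaks on X and 3.62 on chromosomes 1-19. Without the threshold the order was the other way, with 14157 deposited H3K27me3 peaks on X covering 28.1% of it, against 12.9% of chromosomes 1-19. Deposited H3K27ac peaks covered 2.39% of X, against 23.2% of chromosomes 1-19. The sex of the embryos is not given in the labels.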

How the results depend on the processing

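Of 400 alternative values for 67 results, 51 were unchanged, 336 moved and 13 reversed, all 13 among the differences in median fold. The causes were not tested. No base ratio fell under 1 in the 36 alternatives run. Some of the unchanged values, among these 36 and among the 400, could not change. The setting that kept only wide H3K27me3 peaks leaves values without H3K27me3 as they were. No paired analysis was possible because each mark has a single sample and list, and no replicate could be left out for the same reason. Depth is unknown, so which peaks pass a threshold cannot be set against it.

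The base ratios below are in the order H3K27ac with H3K27me3, H3K27ac with H3K4me1, H3K27ac with H3K4me3, H3K27me3 with H3K4me1, H3K27me3 with H3K4me3, and H3K4me1 with H3K4me3. With all deposited peaks they were 1.48, 3.06, 3.10, 1.66, 3.31 and 5.12. At a −log10 q of at least 2 they were 4.93, 6.23, 11.2, 3.47, 9.08 and 7.45, and at least 10 gave 3.91, 8.72, 28.2, 6.19, 11.0 and 10.9. The 10000 peaks of highest q per mark gave 7.48, 13.7, 23.7, 5.97, 12.7 and 9.63. Expectations over 10 kb bins with a deposited peak gave 6.49, 7.38, 16.3, 4.06, 9.81 and 8.21. H3K27me3 peaks of 5000 bases or more, chosen after seeing the data, gave 3.93 with H3K27ac, 4.65 with H3K4me1 and 9.85 with H3K4me3.

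The further values are given for all deposited peaks, then −log10 q of at least 2, at least 10, and 10000 peaks per mark. The ratio for all 4 marks was 48.7, 631, 959.5 and 2095, and it was 858 over 10 kb bins and 940.2 with H3K27me3 of 5000 bases or more. The share of H3K27ac peaks with H3K27me3 was 30.1%, 61.5%, 9.44% and 60.4%, and 8.76% with the wide H3K27me3 peaks. The median H3K27me3 width was 867, 2778, 8722 and 2916 bases. The share of H3K4me3 peaks with H3K27me3 and without H3K27ac was 12.002%, 14.4%, 14.7% and 17.0%, and 14.3% with the wide peaks. Among H3K4me3 peaks with H3K27me3, H3K27ac was at 74.96%, 69.3%, 11.0% and 74.6%, and at 19.1% with the wide peaks. The variance over mean of H3K27me3 peaks per window was 19.9, 7.72, 2.40 and 5.14, and it was 4.52 with peaks joined over 1 kb and 1.38 in 100 kb bins. DLX2 peaks touched H3K27ac in 86.5%, 48.7%, 12.1% and 30.6%.

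The difference in median fold of H3K27me3, with minus without H3K27ac, was 0.11, 0.87, −0.97 and −0.80, against −0.81 as reported. It was −0.81 with an overlap of 50% of the shorter peak and −0.59 in the middle quartiles of width. The other reversals, with minus without, were these. H3K27ac by H3K4me1 gave 0.19 with all peaks and 0.62 at a −log10 q of at least 2. H3K27me3 by H3K4me3 gave −0.10 at 10 or more, −0.25 with 10000 peaks and −0.086 in the middle widths. H3K4me1 by H3K27ac gave −0.0052 at 10 or more and −0.092 in the middle widths. H3K4me3 by H3K27me3 gave −0.27 at 10 or more. H3K4me3 by H3K4me1 gave 0.64 with all peaks, 2.58 at 2 or more and 0.29 with 10000 peaks.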
